A study of Mus musculus with 12 samples.

Results

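The complement genes described here were C1qa, C1qb and C1qc (the chains of C1q), C3, C4b, Cfp, Serping1, C3ar1 and C5ar1. They were taken by name, with earlier results of these data known, and all 9 were found among the 22317 gene symbols of the count table. RNA-seq was performed on 12 libraries from male wild-type BALB/c mice aged 8 weeks, with 3 libraries in each of 4 groups. All mice carried a focal ischemic injury made by photothrombosis (PT), in which a light-activated dye in the blood clots vessels under a laser. SB2 and SB4 were labelled as brain cortex on day 2 and day 4 after PT of the skull, and BS2 and BS6 as interparietal bone, a bone of the skull, on day 2 and day 6 after PT of the brain. The study's methods give 3 biological replicates per condition, and nothing says whether mice were pooled. Uninjured tissue and the injured tissues themselves were not analysed here, so every comparison below is between injured mice. The total count per library was 14126082 to 18972654, and 3 counts corresponded to between 0.1631 and 0.2179 CPM (read counts scaled to a common library size).

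Complement is a protein cascade of innate immunity. C1q binds antibody, pentraxins or cell debris and starts the classical pathway through the proteases C1r and C1s, which cut C4 and C2. All pathways meet at C3, whose fragments coat targets and, as C3a, signal to leukocytes, while cleavage of C5 gives the anaphylatoxin C5a. C1q is made mainly by macrophages and microglia in the tissue rather than by the liver, and in the brain C1q and C3 are known for the tagging of synapses that microglia remove.

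The tissue labels and the transcripts disagreed, and this touches every result. The summed level of 8 neuron markers was 11120 to 12040 CPM in the SB4 libraries and 10700 to 11080 CPM in the BS2 libraries, which were labelled as bone. In the libraries labelled SB2, as brain, it was 63.8 to 104.7 CPM, and in BS6 it was 70.49 to 136.4 CPM. Osteoblast and osteocyte markers ran the other way, at 36850 to 41970 CPM in SB2 and 19220 to 79440 CPM in BS6 against 23.1 to 34.45 CPM in SB4 and BS2. Col1a1 made up 87.39% to 96.94% of the SB2 and BS6 sums, and each of the 7 markers was higher in every SB2 library than in any SB4 library and in every BS6 library than in any BS2 library. A change between the days therefore compared libraries rich in bone transcripts with libraries rich in brain transcripts, and day, labelled tissue and tissue content cannot be told apart within SB or BS. Whether the labels of SB2 and BS2 were exchanged was not tested, and with such an exchange SB4 against BS2 and BS6 against SB2 would be the comparisons of days within a tissue. In the study's comparisons with uninjured controls, fewer genes differed from the skull control in BS2 than in BS6. Fewer differed from the brain control in SB4 than in SB2. The libraries are named by their labels throughout. BS6 replicate 2 stood apart, with neutrophil markers summing to 24980 CPM against 1448 and 3395 CPM in BS6 replicates 1 and 3, and fold changes of named genes that moved by over 1.5 times without it are given both ways.

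Start sites of the genes were read from the annotation (GENCODE M21 on mm10), in which all 9 are protein-coding and lie on the minus strand. C1qb, C1qc and C1qa follow each other within 18675 bases of chromosome 4, at chr4:136880129-136886187, chr4:136889804-136893065 and chr4:136895917-136898803. C4b is at chr17:34728380-34743882 and C3 at chr17:57203970-57228136, Cfp at chrX:20925454-20931555, Serping1 at chr2:84765387-84775444, C3ar1 at chr6:122847138-122856161 and C5ar1 at chr7:16246743-16259540. Promoter sequence from RefSeq (GRCm38.p6) was at hand for 6 of them, C1qb, C1qc, C3, Cfp, C3ar1 and C5ar1. The 3 promoters below are shown because the C1q chains sit in 1 cluster and had the same order of levels in the 4 groups, and because C3 was the gene with the widest range. Each is read 5′ to 3′ on the minus strand and ends upstream of the annotated start, at chr4:136886201-136886450 for C1qb, chr4:136893066-136893164 for C1qc and chr17:57228137-57228386 for C3. The C1qc stretch is shorter because 151 bases that the annotation counts as transcribed were left out. Capitals mark GAGGAA, the core that the myeloid factor PU.1 binds, or its reverse complement TTCCTC, and in C3 a match to TTGCNNAA, a C/EBP motif.
C1qb: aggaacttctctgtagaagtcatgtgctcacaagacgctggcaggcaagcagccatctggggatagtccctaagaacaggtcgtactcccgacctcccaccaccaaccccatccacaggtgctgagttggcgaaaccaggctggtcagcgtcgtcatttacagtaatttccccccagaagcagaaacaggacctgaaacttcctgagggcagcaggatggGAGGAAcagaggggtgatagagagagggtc
C1qc: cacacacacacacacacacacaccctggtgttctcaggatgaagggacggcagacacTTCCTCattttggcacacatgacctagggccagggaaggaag
C3: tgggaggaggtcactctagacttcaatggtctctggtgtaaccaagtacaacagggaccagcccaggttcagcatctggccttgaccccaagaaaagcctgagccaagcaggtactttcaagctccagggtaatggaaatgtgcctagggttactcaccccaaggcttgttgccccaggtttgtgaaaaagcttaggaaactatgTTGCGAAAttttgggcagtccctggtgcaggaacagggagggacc

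The PU.1 core stood 30 bases before the RefSeq start of C1qb and 193 bases before that of C1qc, on opposite strands, and it was found in 2 of the 6 promoters searched on both strands. It is a short motif that 23.3% of all 32841 promoters held. The C/EBP motif began 45 bases before the start of C3 and occurred in 1 of the 6, against 9.57% of all promoters. A spaced pair of IRF sites was in 0 of the 6, against 2.98% of all promoters. These are matches of letters in short windows and say nothing of binding.

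Levels were read first in each library, as CPM scaled with TMM factors over the 12 libraries. For C1qa, the A chain of C1q, the SB2 libraries had 86.75, 96.37 and 86.82 CPM and the SB4 libraries 28.02, 35.61 and 20.16 CPM. The BS2 libraries had 19.41, 24.78 and 20.85 CPM and the BS6 libraries 108.7, 133.7 and 131.0 CPM. Thus SB2 and BS6 were high and SB4 and BS2 low, and the low groups overlapped each other. C1qa was 3.21-fold lower in SB4 than in SB2, a log2 fold change of -1.68 (SE 0.18, n = 3 against 3, edgeR adjusted p = 7.8e-05 after Benjamini-Hochberg adjustment over all genes). It was 5.90-fold higher in BS6 than in BS2, at 2.56 (SE 0.14, edgeR adjusted p = 1.54e-05).

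C1qb, the B chain, was at 56.10, 63.40 and 60.87 CPM in SB2, at 20.36, 23.54 and 17.10 CPM in SB4, at 14.33, 14.47 and 12.13 CPM in BS2 and at 76.68, 91.87 and 92.41 CPM in BS6. No library of 1 group reached into the range of another. C1qb was 2.95-fold lower in SB4 than in SB2 (log2 fold change -1.56, SE 0.11) and 6.54-fold higher in BS6 than in BS2 (2.71, SE 0.13). The C chain, C1qc, was at 62.03, 66.06 and 72.65 CPM in SB2, 14.75, 19.08 and 14.37 CPM in SB4, 10.20, 11.91 and 10.75 CPM in BS2 and 84.12, 93.92 and 94.12 CPM in BS6. C1qc moved the most of the 3 chains in size, 4.14-fold lower in SB4 than in SB2 (-2.05, SE 0.11) and 8.50-fold higher in BS6 than in BS2 (3.09, SE 0.11), though the differences between chains were not tested. The edgeR adjusted p of C1qb and C1qc was at most 1.24e-07 in the SB comparison and at most 1.04e-05 in the BS comparison.

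Since the 3 chains form one protein, their levels were also set against each other, as CPM per kilobase of exon. C1qa made up 45.57% to 55.03% of this sum and C1qb 30.33% to 36.94% over the 12 libraries. The share of C1qc was 18.48% to 21.25% in SB2 and 18.59% to 19.93% in BS6, and it was 14.34% to 17.49% in SB4 and 14.24% to 15.14% in BS2. The share of C1qc was thus higher in every SB2 and BS6 library than in any SB4 or BS2 library. The deposited counts carry no record of how reads were assigned, so a share between genes also depends on the annotation used.

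Cells that make C1q were followed through 10 markers shared by macrophages and microglia. Their sum was 519.4 to 569.6 CPM in SB2, 134.1 to 168.3 CPM in SB4, 116.5 to 126.9 CPM in BS2 and 584.1 to 1018 CPM in BS6, and none of the 10 was at 0 in any library. Tissue macrophage markers other than those of microglia, 6 of the 8 listed, were more divided, with 830.1 to 1021 CPM in SB2, 8.441 to 14.46 CPM in SB4, 8.907 to 18.67 CPM in BS2 and 1251 to 2648 CPM in BS6. Lyz2, which neutrophils and monocytes also express, held 66.06% to 70.94% of that sum in SB2 and 77.56% to 85.35% in BS6, and the other 5 summed to 260.9 to 304.2 CPM in SB2, 3.689 to 6.687 in SB4, 5.309 to 13.15 in BS2 and 280.9 to 480.2 in BS6. Of the 10 shared markers, 8 were called lower in SB4 than in SB2, where 28.6% of all genes were, and 9 were called higher in BS6 than in BS2, where 29% of all genes were, by the same thresholds as below. Ctss was not called in the first (log2 fold change -0.72), and Cx3cr1 was called in neither and had group means of 20.68 CPM in SB2, 32.92 in SB4, 31.88 in BS2 and 27.53 in BS6. The 7 microglia markers did not move as one. P2ry12 was at 10.35, 40.03, 48.24 and 14.23 CPM and Siglech at 2.072, 13.6, 14.81 and 2.824 CPM (means of SB2, SB4, BS2 and BS6), and Gpr34 and P2ry13 also had higher means in SB4 and BS2, against the direction of C1q. Tmem119 and Olfml3 had higher means in SB2 and BS6, and Tmem119, which osteoblasts also express, was at 327.6, 16.94, 15.33 and 220.7 CPM. The summed C1q level per summed marker level was 0.3977 ± 0.0338 in SB2, 0.4302 ± 0.0409 in SB4, 0.3844 ± 0.0487 in BS2 and 0.3856 ± 0.1432 in BS6 (SD, n = 3 each). These ratios overlapped between all 4 groups, but this rested on single markers. With Ctss left out of the marker sum the ratio was 0.4478 to 0.5235 in SB2, 0.5863 to 0.8486 in SB4, 0.5242 to 0.6122 in BS2 and 0.4046 to 0.6712 in BS6, so that every SB4 and BS2 library lay above every SB2 library. With Cx3cr1 left out instead, the SB4 ratios (0.5146 to 0.5910) and the BS2 ratios (0.4709 to 0.6136) again lay above those of SB2 (0.3743 to 0.4419). In bulk RNA, fewer cells of a type and less RNA per cell cannot be told apart, and the part of cell content in any change was not tested.

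**Figure D1:**
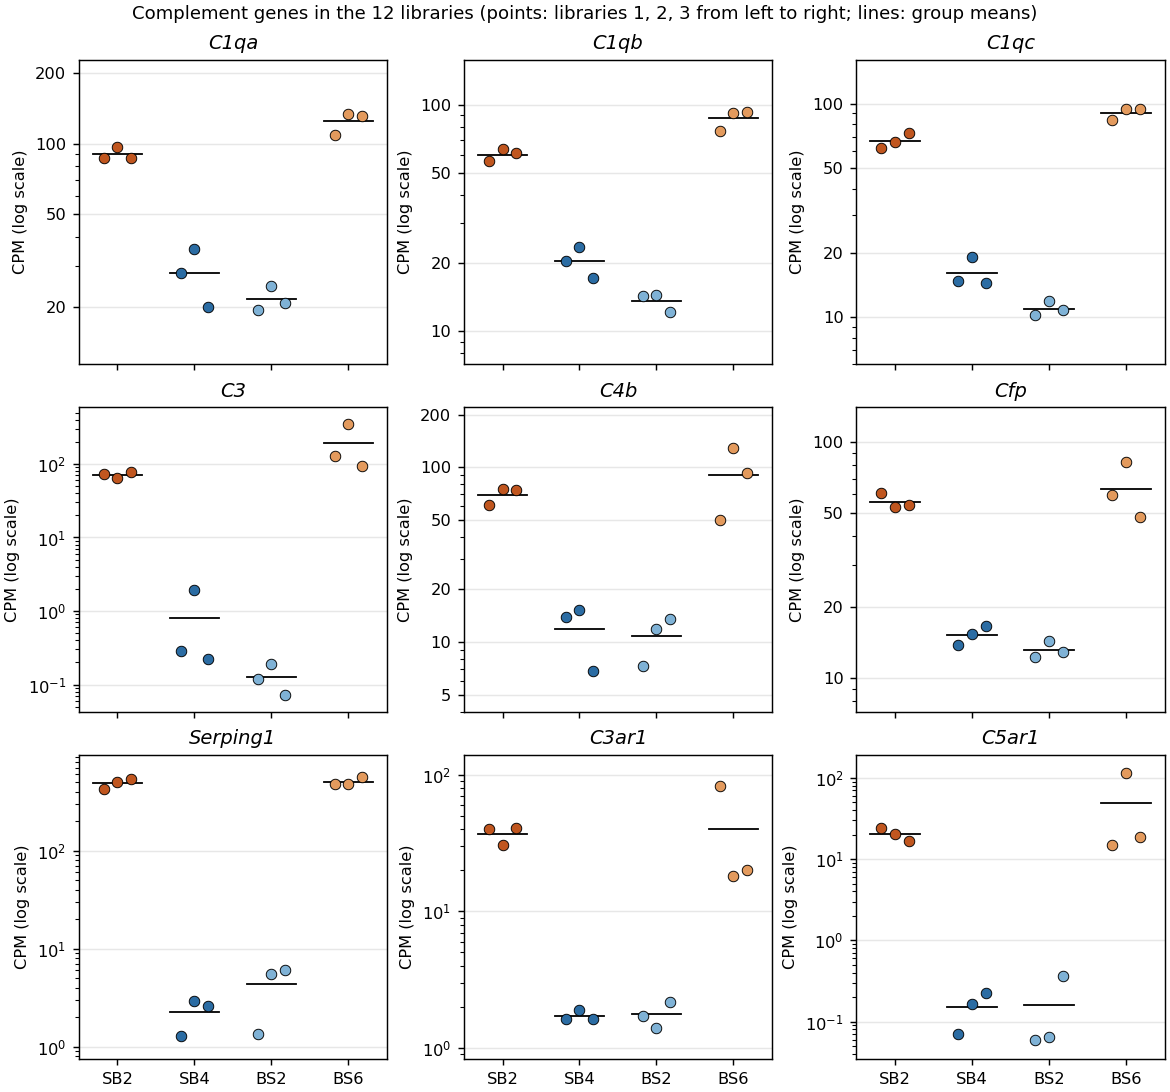
CPM (log axis) of the 9 complement genes in the 12 libraries, with SB2, SB4, BS2 and BS6 along the x axis, a point for each library (replicates 1, 2 and 3 from left to right) and a line at each group mean. For every gene the SB2 and BS6 libraries lie above the SB4 and BS2 libraries, and the points of BS6 are spread widest for C3, C3ar1 and C5ar1.

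C3, on which all complement pathways converge, showed the widest range. It had 72.34, 65.33 and 76.74 CPM in SB2 and 129.6, 346.0 and 94.44 CPM in BS6. In SB4 it had 0.2837, 1.903 and 0.2228 CPM, from 4, 35 and 4 counts, and in BS2 0.118, 0.1921 and 0.07264 CPM, from 2, 3 and 1 counts. C3 was therefore at or near the detection limit in 5 of the 6 low libraries, and SB4 replicate 2 was above the other two of its group.

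Because so few counts lay in the low groups, the C3 ratios were given with counting intervals, which cover counting error only. C3 was 84.07-fold lower in SB4 than in SB2 (95% interval 62.28 to 116.4), with a log2 fold change of -6.38 (SE 0.48, edgeR adjusted p = 6.46e-05). Without SB4 replicate 2 the SB4 mean dropped from 0.8031 to 0.2533 CPM and the log2 fold change was -8.09. In BS6 against BS2 the C3 ratio was 1493 (95% interval 685.5 to 4068), with a log2 fold change of 10.48 (SE 0.84, edgeR adjusted p = 6.67e-05). The mean of C3 in BS6 fell from 190.0 to 112 CPM without BS6 replicate 2, and the log2 fold change over BS2 was then 9.71.

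C4b, a source of the C4 cut by C1s, moved less. Its levels were 61.06, 74.72 and 73.69 CPM in SB2, 13.83, 15.17 and 6.795 CPM in SB4, 7.255, 11.85 and 13.51 CPM in BS2 and 49.75, 129.6 and 92.72 CPM in BS6. SB4 and BS2 overlapped fully, and so did SB2 with BS6. C4b was 5.85-fold lower in SB4 than in SB2 (log2 fold change -2.55, SE 0.29, edgeR adjusted p = 0.000284) and 8.60-fold higher in BS6 than in BS2 (3.10, SE 0.42, edgeR adjusted p = 0.000631). C4a, its close copy at chr17:34809092-34823464, can share reads with C4b, so the split between them is uncertain. C4a stayed between 2.737 and 3.615 CPM as a group mean and was not called in either comparison (log2 fold changes of -0.11 and 0.45). C4b made up 93.54% to 96.75% of the counts of both genes in SB2 and BS6, and 73.49% to 80.91% in SB4 and BS2.

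Cfp encodes properdin, which stabilises the C3 convertase of the alternative pathway and so is its positive regulator. Cfp was at 60.55, 53.14 and 54.03 CPM in SB2, 13.76, 15.33 and 16.71 CPM in SB4, 12.27, 14.41 and 12.86 CPM in BS2 and 59.53, 82.39 and 47.92 CPM in BS6. The spread within SB2, SB4 and BS2 was small beside the gap between high and low libraries. Cfp was 3.64-fold lower in SB4 than in SB2 (log2 fold change -1.86, SE 0.10, edgeR adjusted p = 8.36e-09). It was 4.94-fold higher in BS6 than in BS2 (2.30, SE 0.22, edgeR adjusted p = 0.000142), the smallest change of the 9 in that comparison by point estimate.

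Serping1 encodes the C1 inhibitor, which blocks C1r and C1s and so restrains the classical pathway. Per kilobase of exon it was the most abundant of the 9 in SB2 and BS6, and its CPM levels there were 429.3, 500.0 and 532.6 and 472.9, 480.7 and 560.4 CPM. In SB4 it had 1.277, 2.936 and 2.618 CPM and in BS2 1.357, 5.571 and 6.102 CPM. The high groups overlapped closely, and in BS2 replicate 1 was well below replicates 2 and 3. Serping1 was 207-fold lower in SB4 than in SB2 (log2 fold change -7.69, SE 0.21, edgeR adjusted p = 2.41e-09) and 120.1-fold higher in BS6 than in BS2 (6.91, SE 0.59, edgeR adjusted p = 8.33e-05).

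The make-up of the 9 genes differed with Serping1. It held 32.26% to 52.49% of their summed CPM in the SB2 and BS6 libraries but 1.36% to 7.74% in SB4 and BS2. The share of C1qa was 25.26% to 30.79% in SB4 and BS2 and 8.56% to 11.37% in SB2 and BS6. Per kilobase of exon, mean Serping1 stood at 209.6 in SB2 against 86.52 for C1qa, whereas in SB4 it stood at 0.98 against 26.86. The order of inhibitor and initiator thus turned round between these groups. Fibroblast markers moved with Serping1 between the groups, summing to 21240 to 28720 CPM in SB2 and 4701 to 30160 CPM in BS6, against 113.8 to 119.1 CPM in SB4 and 95.97 to 132.8 CPM in BS2. In BS6 replicate 2 that sum was 4701 CPM and Serping1 was at 480.7 CPM. Col3a1 held 42.39% to 70.01% of the sum in BS6 and was at 1993 CPM in replicate 2 against 21110 and 12110 CPM in replicates 1 and 3, whereas Mfap5 was at 18.84 to 20.8 CPM in the 3 libraries. The osteoblast and osteocyte, tissue macrophage, neutrophil and endothelial sums were also higher in SB2 and BS6 than in SB4 and BS2. Neuron, astrocyte and oligodendrocyte sums ran the other way. This split is therefore not particular to fibroblast markers, and the part of fibroblast content in the Serping1 levels was not tested. The fibroblast marker Mfap5 was at 0 in all 3 SB4 libraries.

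Of the receptors for the cleaved fragments, C3ar1 binds C3a and C5ar1 binds C5a. C3ar1 had 39.93, 30.63 and 40.54 CPM in SB2, 1.631, 1.903 and 1.615 CPM in SB4, 1.711, 1.409 and 2.179 CPM in BS2 and 82.94, 18.24 and 19.98 CPM in BS6. BS6 replicate 1 alone was above SB2, and replicates 2 and 3 were below it. C3ar1 was 21.37-fold lower in SB4 than in SB2 (log2 fold change -4.42, SE 0.16, edgeR adjusted p = 3.34e-10) and 23.45-fold higher in BS6 than in BS2 (4.55, SE 0.74, edgeR adjusted p = 0.00147). Without BS6 replicate 1 the BS6 mean dropped from 40.39 to 19.11 CPM and the log2 fold change over BS2 was 3.48.

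C5ar1 had 23.87, 20.18 and 16.79 CPM in SB2 and 15.0, 113.7 and 18.96 CPM in BS6. In SB4 it had 0.07093, 0.1631 and 0.2228 CPM, from 1, 3 and 4 counts, and in BS2 0.05899, 0.06404 and 0.3632 CPM, from 1, 1 and 5 counts. C5ar1 was thus barely detected in SB4 and BS2, and BS6 replicate 2 was far above the other libraries. The C5ar1 ratio of SB2 to SB4 was 128.4 (95% counting interval 64.93 to 298.3), with a log2 fold change of SB4 over SB2 of -6.93 (SE 0.28, edgeR adjusted p = 9.05e-10). In BS6 against BS2 the ratio was 335.1 (95% counting interval 162.4 to 834.4), with a log2 fold change of 8.31 (SE 1.32, edgeR adjusted p = 0.00133). The BS6 mean of C5ar1 fell from 49.21 to 16.98 CPM without BS6 replicate 2, and the log2 fold change over BS2 was then 6.77. The BS2 mean fell from 0.1621 to 0.0615 CPM without BS2 replicate 3, and the log2 fold change was then 9.50.

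The receptors parted within BS6. The ratio of C3ar1 to C5ar1 counts was 5.53 in replicate 1, 0.1605 in replicate 2 and 1.054 in replicate 3, while it was 1.52 to 2.42 in the SB2 libraries. Replicate 1 had the highest sum of the 10 shared macrophage markers, at 1018 CPM, and the lowest neutrophil marker sum, at 1448 CPM. The macrophage markers did not rank the libraries alike, since Tyrobp, Fcer1g and Laptm5 were highest in replicate 2, and so was the sum of the tissue macrophage markers, at 2648 CPM against 2125 CPM in replicate 1 and 1251 CPM in replicate 3. Replicate 2 had 916.6 CPM of the shared markers and 24980 CPM of neutrophil markers, together with the highest C1qa, C3, C4b, Cfp and C5ar1 levels of the 12 libraries. In SB2 the neutrophil sum was 868.2 to 1545 CPM, in SB4 2.284 to 5.036 CPM and in BS2 0.7668 to 1.525 CPM. The neutrophil gene Camp was at 0 in 2 of the SB4 and 2 of the BS2 libraries and in 0 of the SB2 libraries. The part of these cells in the C3, C3ar1 and C5ar1 levels was not tested.

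**Figure D2:**
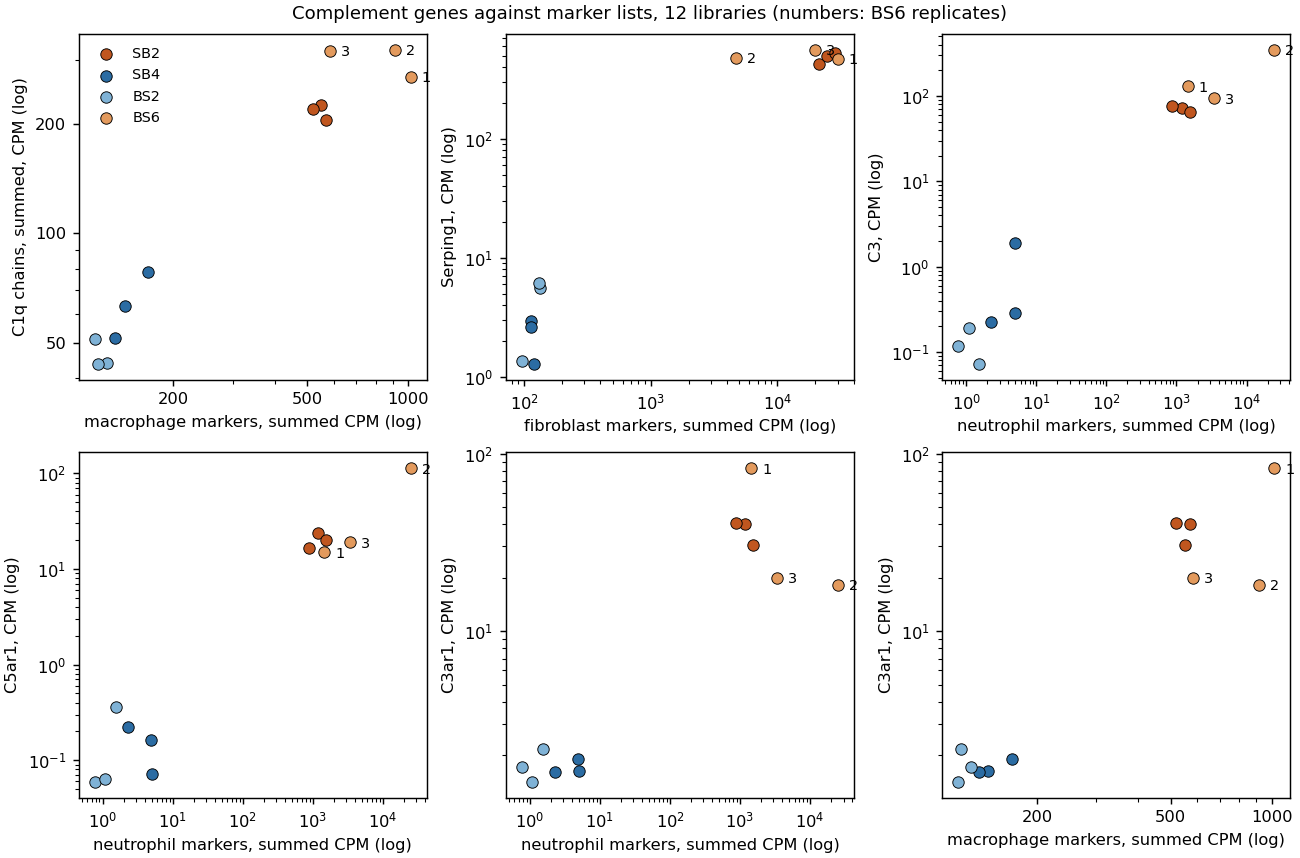
Each panel sets a complement gene (CPM, log y axis) against the summed CPM of a marker list (log x axis) in the 12 libraries, coloured by group, with the BS6 replicates numbered. C3 and C5ar1 are highest in BS6 replicate 2, where neutrophil markers reach 24980 CPM, and C3ar1 is highest in BS6 replicate 1, where macrophage markers reach 1018 CPM.

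The early and late groups of each tissue label were compared, as in the study. Each comparison set libraries rich in bone transcripts against libraries rich in brain transcripts. It therefore cannot show how a tissue away from the injury differed between days. Calls needed both an adjusted p below 0.05 and a change of more than 1 on the log2 scale. In SB4 against SB2, 9 of 9 complement genes were called lower, where 28.6% of the 17293 genes tested were called lower and 56.4% in either direction. In BS6 against BS2, 9 of 9 were called higher, against 29% higher and 55.5% in either direction among 17311 genes. The median log2 fold change of the 9 was -2.55 in the SB comparison (all genes -0.015) and 3.10 in the BS comparison (all genes 0.020). All 9 also had groups that did not overlap in each comparison, which held for 85.5% and 80.8% of all genes, so this count says little about complement.

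Both changes ran in opposite directions in calendar time. The difference between them, the BS change minus the SB change, was tested over all 12 libraries and was past both thresholds and above 0 for 9 of 9 genes. Of 18068 genes tested, 73.6% passed in either direction and 37.8% were above 0. It ranged from 4.18 on the log2 scale for Cfp to 16.89 for C3 (edgeR adjusted p from 1.22e-10 to 1.92e-06), and the C3 value was 18.58 without SB4 replicate 2 and 16.11 without BS6 replicate 2. SB2 and BS6, the groups with bone transcripts, were the high ones for all 9 genes.

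**Figure D3:**
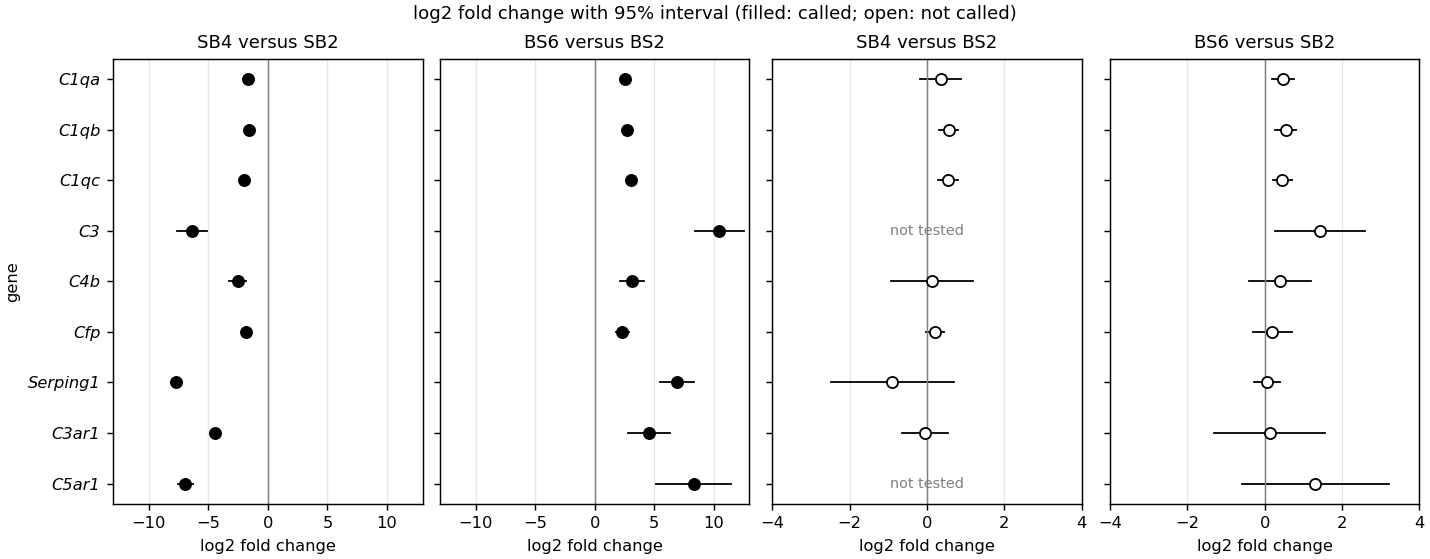
log2 fold change (x axis) with its 95% interval for the complement genes tested in each of 4 comparisons (9 genes, or 7 in SB4 against BS2, where C3 and C5ar1 are marked as not tested), with filled points for called genes and open points for those not called. All 9 points are filled and below 0 in SB4 against SB2 and filled and above 0 in BS6 against BS2, and none is filled in SB4 against BS2 or in BS6 against SB2.

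Comparisons between groups of like content were therefore added. SB4 and BS2 both held brain transcripts but differed in label and in day. Of the 9 genes 7 had enough counts to be tested, and 0 were called by edgeR or by DESeq2, against 0.147% of 16278 genes. An unadjusted p under 0.05 was reached by 2 of the 7, both C1q chains, and by 11.9% of all genes. C1qb was higher in SB4 by 0.56 on the log2 scale (95% interval 0.30 to 0.81, edgeR adjusted p = 0.0272) and C1qc by 0.54 (95% interval 0.28 to 0.80, edgeR adjusted p = 0.0395), both under the fold threshold, and their libraries did not overlap, which was so for 16.5% of all genes. Adjusted p alone was passed by 0.94% of all genes. C1qa pointed the same way, at 0.35, with an interval from -0.18 to 0.88.

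The macrophage and microglia markers were also higher in SB4 by sum, 134.1 to 168.3 CPM against 116.5 to 126.9 CPM in BS2, and 0 of the 10 were called. Most of that gap was Ctss, with means of 61.54 CPM in SB4 and 39.78 CPM in BS2, and the sums of the other 9 overlapped, at 80.72 to 92.19 CPM in SB4 and 75.62 to 83.82 CPM in BS2. Cfp differed by 0.20 (95% interval -0.035 to 0.43), C4b by 0.12 (-0.93 to 1.18) and C3ar1 by -0.047 (-0.64 to 0.54). For C4b and Serping1 the intervals reach past a 2-fold difference, so a change of that size is not excluded. Serping1 was at -0.90 (95% interval -2.48 to 0.69, edgeR adjusted p = 0.664), and without BS2 replicate 1, the low library, it was called lower in SB4 at -1.34 (edgeR adjusted p = 0.0116). C3 and C5ar1 were too low to be tested here. By counts C3 was 6.58-fold higher in SB4 (95% counting interval 2.79 to 18.93), with 35 of the 43 SB4 counts from replicate 2. The C5ar1 ratio was 1.05 (0.33 to 3.40).

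SB2 and BS6 both held bone transcripts, and 0 of the 9 genes were called between them by edgeR, against 1.86% of 16329 genes. DESeq2 called 1, C3, and 6.46% of all genes. An unadjusted p under 0.05 in edgeR was reached by 4 of the 9, namely the 3 C1q chains and C3, and by 29.2% of all genes. The C1q chains were higher in BS6 by 0.49 for C1qa (95% interval 0.20 to 0.77), 0.55 for C1qb (0.28 to 0.82) and 0.46 for C1qc (0.21 to 0.70). Their edgeR adjusted p was 0.0629, 0.0459 and 0.0557, where 5.71% of all genes passed 0.05 at any fold change, and all 3 chains had BS6 libraries above every SB2 library. C3 was also higher in every BS6 library than in any SB2 library, which made 4 such genes of 9, against 38.1% of all genes.

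C3 was higher in BS6 by 1.43 on the log2 scale (95% interval 0.26 to 2.60, edgeR adjusted p = 0.12). Without BS6 replicate 2 the C3 difference was 0.66 with a smaller adjusted p (edgeR adjusted p = 0.018), and the C1q differences were 0.42 to 0.50. The summed macrophage and microglia markers, too, were higher in each BS6 library (584.1 to 1018 CPM) than in any SB2 library (519.4 to 569.6 CPM). Of the 10 markers alone, 4 were higher in every BS6 library than in any SB2 library and 0 were called by edgeR, and Cd68 had a lower mean in BS6 (105.4 CPM) than in SB2 (123.2 CPM). C5ar1 differed by 1.30 (95% interval -0.60 to 3.21) and by -0.25 without BS6 replicate 2. C3ar1 differed by 0.14 (-1.30 to 1.57) and by -0.93 without BS6 replicate 1. Serping1 differed by 0.067 (-0.27 to 0.41), Cfp by 0.20 (-0.30 to 0.70) and C4b by 0.40 (-0.41 to 1.20). The intervals of C3, C3ar1, C5ar1 and C4b are wide, and only those of the C1q chains, Serping1 and Cfp stay under a 2-fold difference.

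The order of the group means was BS6, SB2, SB4, BS2 for 6 genes, namely the 3 C1q chains, C3, C4b and Cfp. For Serping1, C3ar1 and C5ar1 it was BS6, SB2, BS2, SB4. The step from SB2 to the next group was the one that exceeded the spread in every gene. Between SB2 and BS2, both of day 2, 9 of 9 genes were called higher in SB2, by at least the 2.04 of C1qa on the log2 scale, where 28.6% of all genes were. Between the late groups, 9 of 9 were called higher in BS6 than in SB4, by at least the 2.09 of Cfp, where 28.8% of all genes were. These comparisons reuse the libraries of those above and are no independent evidence.

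Other genes of the complement system were read from a list of 46, of which 34 were in the count table. In SB4 against SB2, 30 were tested, 17 were called lower and 7 higher, where 28.6% and 27.8% of all genes were. In BS6 against BS2, 30 were tested, 16 were called higher and 6 lower, where 29% and 26.5% of all genes were. Their median log2 fold changes were -2.09 and 1.54, against -0.015 and 0.020 for all genes. Thus unlike the 9 genes above the list moved in both directions. Both the 9 genes and the list were chosen with earlier results of these data known, so this contrast may reflect the choice.

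The proteases of C1, which C1q activates and Serping1 blocks, moved with the 9 genes. In SB4 against SB2, 4 of 4 were called lower, where 28.6% of all genes were. In BS6 against BS2, 4 of 4 were called higher, where 29% of all genes were. C1ra, a mouse C1r gene, had a mean of 105.2 CPM in SB2, 4.12 in SB4, 2.872 in BS2 and 134.8 in BS6, with log2 fold changes of -4.64 (SE 0.26) and 5.59 (SE 0.29). C1s1 changed by -4.26 and 5.74 and C1s2 by -3.26 and 3.25 (log2, SB and BS comparison). The copies C1ra and C1rb, and likewise C1s1 and C1s2, are close in sequence. Their counts are therefore uncertain as single genes, and the 4 calls may not be separate.

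In the lectin pathway, which starts from sugars on the target, 4 genes were tested in each comparison. Colec12, a membrane collectin of scavenger type, changed by -5.57 (SE 0.10) and 4.64 (SE 0.32) and was called in both. Masp1, a protease of the pathway, was called higher in SB4 than in SB2 at 1.23 (SE 0.14) and was at -0.077 (SE 0.31) in BS6 against BS2. Masp2 was at -0.007 and -0.048 and was called in neither. Of the central components, C2, the partner of C4 in the convertase, changed by -2.62 and 2.64 and was called in both. Hc, the mouse gene of C5, was too low to be tested, with group means of 0.1704 CPM in SB4 to 2.369 CPM in BS6. Of the 117 BS6 counts of Hc, 106 came from BS6 replicate 2, and the BS6 mean was 0.3523 CPM without it. Of the terminal components, C7 was called in the other direction, at 3.23 (SE 0.55; 4.12 without SB2 replicate 1, which held 8 of its 12 SB2 counts) and -2.87 (SE 0.47), and C8g was called in neither, at -0.12 and 0.41.

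Of the soluble regulators, 2 of 4 tested were called lower and 1 higher in SB4 against SB2 (all genes 28.6% and 27.8%). In BS6 against BS2, 1 of 3 was called higher and 1 lower, near the 29% and 26.5% of all genes. Clu, clusterin, which astrocytes also make, ran against the 9 genes with group means of 167.2 CPM in SB2, 534.6 in SB4, 594.2 in BS2 and 161.0 in BS6, at 1.68 (SE 0.28) and -1.84 (SE 0.19). Vtn, vitronectin, was at -0.66 and 0.76, under the fold threshold in both. Astrocyte markers summed to 5530 to 6040 CPM in SB4 and BS2 and to 596.9 to 932.1 CPM in SB2 and BS6. Gja1, which is not limited to astrocytes, ran against that list with means of 700.5 CPM in SB2, 150.5 in SB4, 183.8 in BS2 and 428.3 in BS6, and the other 7 summed to 138.1 to 186.3 CPM in SB2 and 173.7 to 421.2 CPM in BS6.

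Membrane regulators were called in both directions within each comparison. In SB4 against SB2, 3 of 8 were called lower and 4 higher (all genes 28.6% and 27.8%). In BS6 against BS2, 3 of 8 were called higher and 4 lower (all genes 29% and 26.5%). Susd4, a complement inhibitor with sushi domains, was at 5.77 (SE 0.10) and -4.97 (SE 0.25), and Csmd2, a large membrane protein with the same kind of domain, at 8.41 (SE 0.17) and -6.68 (SE 0.43), or -7.37 in the BS comparison without BS6 replicate 2. Cr1l, the mouse Crry gene, which limits C3 deposition on cells, was at -1.57 (SE 0.09) and 1.53 (SE 0.10). Of the listed receptors, 5 of 6 tested were called lower in SB4 against SB2, where 28.6% of all genes were. In BS6 against BS2, 5 of 7 were called higher, where 29% of all genes were. C1qbp ran the other way there by mean, at 34.48 CPM in BS2 and 28.2 CPM in BS6. Itgb2 and Itgam, the chains of complement receptor 3, changed by -4.65 and 6.07 and by -2.50 and 4.44, and in BS6 against BS2 they were at 5.18 and 3.20 without BS6 replicate 2. Cd93, which is also an endothelial gene, changed by -3.74 and 4.03. Endothelial markers summed to 865.5 to 928.6 CPM in SB2 and 837.5 to 1083 CPM in BS6. In SB4 their sum was 173.5 to 216.2 CPM and in BS2 135 to 199.2 CPM. Cldn5 of that list had a lower mean in SB2 (18.5 CPM) than in SB4 (23.76 CPM). The part of endothelial content in the Cd93 levels was not tested. All values called in these paragraphs passed the edgeR adjusted p with the same thresholds.

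**Figure D4:**
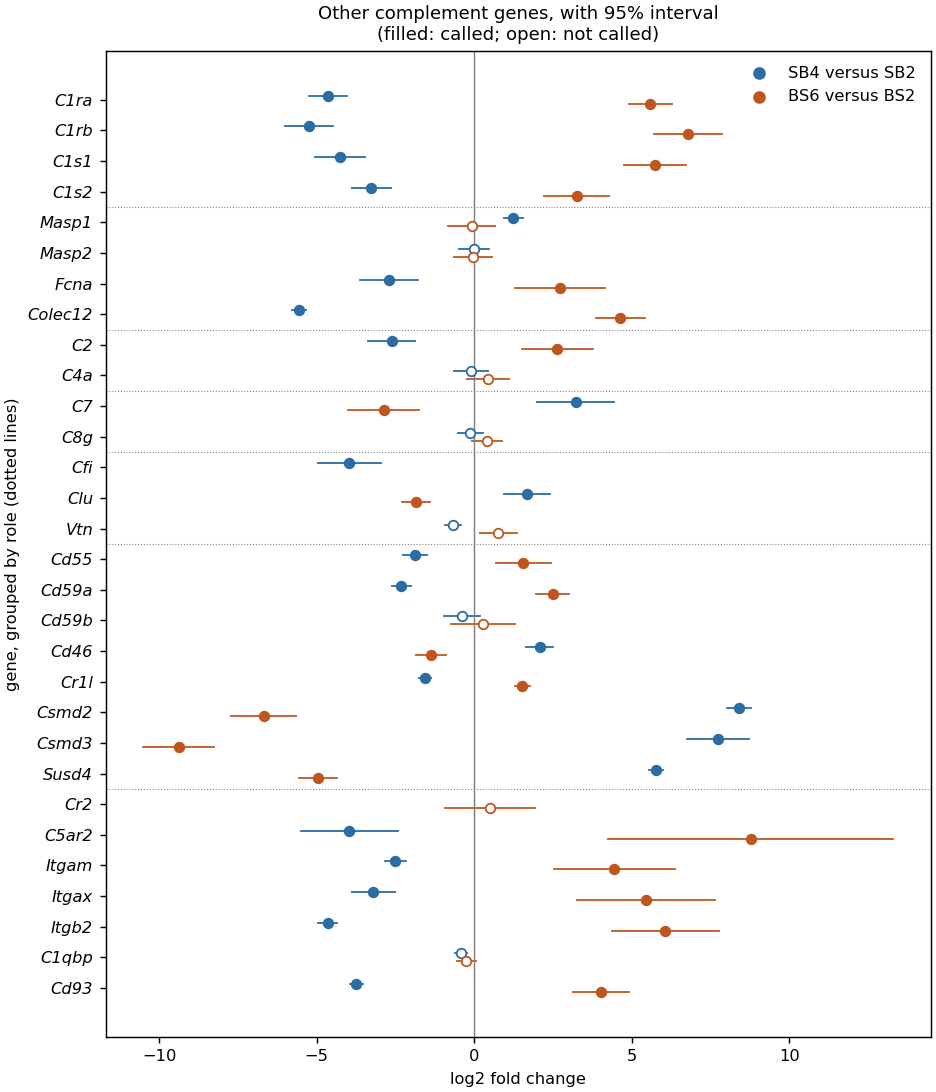
log2 fold change (x axis) with its 95% interval for 30 other complement genes, grouped by role, in SB4 against SB2 (blue) and BS6 against BS2 (orange), with filled points for called genes. The C1 proteases, Colec12 and the receptors Itgb2, Itgam and Cd93 lie below 0 in the first and above 0 in the second, while Clu, Susd4 and Csmd2 lie on the other sides.

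Between groups of like content, 0 of the other complement genes were called by edgeR, out of 24 tested in SB4 against BS2 and 28 in BS6 against SB2. An unadjusted p under 0.05 was reached by 3 and 6 of them, where 11.9% and 29.2% of all genes reached it. DESeq2 called 0 and 3 of them, and 0.252% and 6.46% of all genes.

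For each of the 9 genes, the genes with the most similar pattern were found by Pearson's r of log2(CPM + 1) over the 12 libraries, among the 11364 genes whose mean reached 10 CPM. The 12 points fall into high and low libraries that share their tissue content, so r is high for many genes and is given as a description. C1qa was closest to Trim25 (r = 0.9971), Uba7 and Zbp1, C1qb to Tap1 (r = 0.992), Lgals9 and Uba7, and C1qc to Lgals9 (r = 0.9955), Trim25 and Fcgr1. Trim25 encodes a ubiquitin ligase, Zbp1 a sensor of nucleic acids, Tap1 a peptide transporter of antigen presentation and Fcgr1 a macrophage Fc receptor. C3 was closest to Lcp2 (r = 0.997), Ptprc and Csf2rb2, of which Ptprc encodes CD45 of leukocytes. C4b was closest to Samd9l (r = 0.9835), Emb and Slfn4, and Cfp to Card19 (r = 0.9962), Cdk6 and Emilin2. Serping1 was closest to Zic1 (r = 0.9991), Tbx15 and Lrrk1, of which Zic1 and Tbx15 are developmental transcription factors. Among the genes closest to C3ar1 were Ms4a7 (r = 0.992) and Cav1, and C5ar1 was closest to Anxa3 (r = 0.998), Glipr2 and Hmgb2. Ms4a7 was on the list of tissue macrophage markers.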

How the data were processed

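RNA-seq of poly(A) RNA was analysed in 12 mouse libraries. Reads were filtered by the authors with fastp and aligned to mm10 with HISAT2 2.1.0, and the deposited values are raw counts for each gene symbol, not normalized. The counting program, its annotation and its use of strand are not given in the sources used here, nor is whether the counts precede batch correction by ComBat_seq. Column names gave the sample of each column, and 0 columns belonged to no sample.

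Counts were compared between 2 groups of 3 libraries with the robust quasi-likelihood test of edgeR 4.0.16 (R 4.3.3), after filterByExpr at 10 counts and with TMM factors, and p-values were adjusted over all genes tested (Benjamini-Hochberg). Calls used the study's thresholds, 0.05 for the adjusted p and 1 for the size of the log2 fold change, where the study used DESeq2. Standard errors were taken from the fold change and the F statistic. CPM used TMM factors over the 12 libraries. Intervals and limits from counts cover counting error only, since reads carry no molecular identifiers. The p-values measure the spread between these samples. The scripts were tested on simulated data with 200 changed genes, so this test did not cover comparisons in which most genes differ.

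The 9 genes, the lists and the rules were chosen with earlier results of these data known. Named by rule were all 9 genes, up to 3 other complement genes per role by mean CPM, up to 5 called ones per comparison of like content (0 were called), and the 3 genes most like each member. Of these, 2 genes are not reported here, and 1 of them was left out of the plot of other complement genes. Of the 22317 symbols, 22029 were found in GENCODE M21, used for coordinates and exon lengths. Listed genes not named among the symbols of the table were not analysed here. Alternatives were RLE factors, library totals, no filter or 10 counts in every library, DESeq2 1.42.0, 1 fit of all 12 libraries, a replicate block, adjusted p alone and each library left out. Pairs of libraries of 1 group differed by more than sampling noise (chi-square per degree of freedom 4.167 to 212.8), and none was counted as a duplicate.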

Additional observations from a re-analysis of the deposited data

Results flagged for a closer look

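How the late group differed from the day 2 group was not alike in the BS and SB libraries for any of the 9 complement genes. The difference between both, the log2 fold change of BS6 over BS2 minus that of SB4 over SB2, was tested as a contrast over 12 libraries with edgeR. It was 4.26 for C1qa, 4.28 for C1qb, 5.15 for C1qc, 5.66 for C4b and 4.18 for Cfp. It was 16.89 for C3, 14.64 for Serping1, 8.98 for C3ar1 and 15.26 for C5ar1. The values of C3 and C5ar1 rest on few counts in SB4 and BS2 and depend on the prior count. C3 was at 18.58 without SB4 replicate 2 and at 16.11 without BS6 replicate 2, C5ar1 at 13.71 without BS6 replicate 2 and at 16.40 without BS2 replicate 3, and C3ar1 at 7.86 without BS6 replicate 1. The edgeR adjusted p was between 1.22e-10 and 1.92e-06, and 73.6% of all genes tested passed the same thresholds in either direction. In each gene the SB change and the BS change had opposite signs. The tissue content of the libraries turned round between the days in SB and in BS, so that tissue content, day and label cannot be told apart here.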

How the results depend on the processing

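For the 9 complement genes, 872 values under alternatives kept their direction and side of the thresholds, 6 passed them anew, 11 changed sign and 0 lost a call. The 9 of 9 called in SB4 against SB2 and in BS6 against BS2 became 7 of 7 with at least 10 counts in every library, which leaves C3 and C5ar1 untested. That filter left 15 and 13 other complement genes called in these comparisons, and 14 in SB2 against BS2 and in BS6 against SB4. In SB4 against BS2, adjusted p alone called 2 of the 9 and 153 genes in all, no filter called 50, DESeq2 41, the fit of all 12 libraries 8 and the fit with the replicate number as a block 61. Leaving out 1 library gave 0 to 1 of the 9 and 18 to 85 genes in all. In BS6 against SB2, DESeq2 called 1 of the 9 (C3 at 1.44, adjusted p = 0.0183), 3 others and 1055 genes in all, the fit of all 12 libraries 1, 4 and 1273, and adjusted p alone 1, 1 and 932. With the replicate block 0 genes were called there and C3ar1 turned to -0.23 (edgeR adjusted p = 0.784), and leaving out 1 library gave 0 to 667 genes. Nothing states that the replicate numbers pair the libraries. Same-numbered libraries correlated at -0.132 to 0.093 after group means were removed, and libraries of other numbers at up to 0.227. With 3 libraries per group this cannot exclude pairing. The block changed no call of the 9 genes. Masp2 in SB4 against SB2 turned to 0.013 with RLE factors and DESeq2, 0.004 with at least 10 counts in every library and 0.001 with the replicate block. With 1 library left out it ranged from -0.12 to 0.15 there and C4a from -0.25 to 0.061, and in BS6 against BS2 Masp1 ranged from -0.48 to 0.17 and Masp2 from -0.23 to 0.10. Likewise in SB4 against BS2 C4b ranged from -0.10 to 0.42 and C3ar1 from -0.19 to 0.12. In BS6 against SB2 C3ar1 ranged from -0.93 to 0.48, Cfp from -0.049 to 0.36, C5ar1 from -0.25 to 1.74 and Serping1 from -0.02 to 0.13. The cause of these shifts was not tested. Library totals moved the median of all genes by -0.09 in SB4 against SB2. C3 and C5ar1 had at most 5 counts in each SB4 and BS2 library, except 35 counts of C3 in SB4 replicate 2, which limits their ratios.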
